A study of Mus musculus with 4 samples.

Results

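Interferon-induced genes and the factors that switch them on were followed in mouse lung after bleomycin, through 48 listed genes: 28 genes induced by type I interferon, 8 GTPase genes induced by interferon gamma, 8 transcription factor genes, 3 receptor genes and the inhibitor gene Socs1. The genes were chosen by symbol. Of the 48, 44 were named on the array and 33 had a value on at least 3 of 4 arrays, among 8384 such genes of 13410 named on the array. The study measured lung RNA of 4 bleomycin-treated A/J mice, numbered 1 to 4, with 1 two-colour array per mouse and 1 pool of control A/J lung RNA as the common partner on all of them. A/J is an inbred laboratory strain, and bleomycin is a DNA-damaging drug used to injure the lung. All RNA was amplified before hybridisation, and the pool is 1 control sample, so the spread between control mice is not part of any error given here. The labels used here state no age, sex, dose, route or time, nor whether the mice were treated together.

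Each value is a log ratio of 1 treated mouse and the pool, read here as log2 because the base is not stated, and centred on the median of its array. Which RNA forms the numerator is not stated. By the wording of the titles it would be the treated mouse, so that values above 0 would be higher in treated lungs, but this is not settled. The text hence speaks of genes above or below 0, and every sign would turn, with sizes and p-values kept, if the pool were on top. A gene "passed" when limma, testing the mean of the arrays against 0 (two-sided), gave a Benjamini-Hochberg adjusted p of at most 0.05 over all 8384 genes. Arrays correlated over the 6057 genes with 4 values at 0.72 for mice 1 and 2, at 0.86 for mice 3 and 4 and at 0.44 to 0.56 for the remaining pairs. No label separates the mice into these pairs. The number of arrays limits the precision. A ratio does not show how strongly a gene is expressed, so absence of a cell type could not be judged. In whole lung, fewer cells of a type and less RNA per cell cannot be told apart.

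Interferons are signalling proteins made in response to viruses, microbial products and damaged or misplaced nucleic acids. Type I interferons bind a receptor made of Ifnar1 and Ifnar2, interferon gamma binds Ifngr1 and Ifngr2, and both receptors activate Janus kinases and Stat proteins. Type I signals act mainly through a complex that holds Stat2 and Irf9 on a DNA motif called the interferon-stimulated response element, and interferon gamma acts through another motif, the gamma-activated site. Induced genes include antiviral effectors, GTPases that attack the vacuoles of intracellular microbes, and feedback inhibitors such as Socs1 and Usp18. In lung, macrophages, dendritic cells, lymphocytes, endothelium and epithelium can all respond.

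The 2 DNA motifs were searched for in RefSeq promoter sequences (GRCm38.p6) that span 250 bases before to 50 bases after a gene's start. Some genes had more than 1 start, and a gene was counted if any of its promoters matched. The response element was spelled GAAA, any 2 bases, GAAA, and the gamma-activated site TTC, any 3 bases, GAA, on both strands, with matches allowed to overlap. Of 41 listed genes with a promoter in the table, 20 (48.8%) held the response element and 16 (39.0%) the gamma-activated site, against 3.99% and 9.55% of all 27025 genes in the table. A match is only a match of letters. The 6 stretches below are printed, motifs in capitals, 5′ to 3′ on the gene's strand, because their genes carry the results below and lie on different sides of 0: those of Irf1 (chr11:53769909-53769947, plus strand), Tgtp1 (chr11:48992299-48992349, minus strand), Gbp3 (chr3:142559984-142560029, plus strand), Ifit3 (chr19:34583358-34583431, plus strand), Isg15 (chr4:156200860-156200911, minus strand) and Socs1 (chr16:10785589-10785634, minus strand).
Irf1: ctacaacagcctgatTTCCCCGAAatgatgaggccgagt
Tgtp1: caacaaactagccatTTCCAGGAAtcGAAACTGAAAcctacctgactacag
Gbp3: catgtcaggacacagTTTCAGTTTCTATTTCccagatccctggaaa
Ifit3: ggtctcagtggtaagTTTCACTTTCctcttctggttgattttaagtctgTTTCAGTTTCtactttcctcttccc
Isg15: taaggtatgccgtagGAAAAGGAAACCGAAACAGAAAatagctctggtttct
Socs1: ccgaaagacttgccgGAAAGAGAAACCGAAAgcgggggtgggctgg
Irf1 held 1 gamma-activated site, from 90 to 82 bases before 1 of its starts, and no response element. The other promoter listed for Irf1, and that for Gbp3, held neither motif. Tgtp1 held 1 of each motif. Gbp3 and Socs1 held 2 overlapping response elements, Isg15 3 overlapping ones and Ifit3 2 separate ones. In Gbp3 and Ifit3 the element reads on the opposite strand.

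Of the 33 interferon genes tested, 7 (21.2%) passed, 5 above 0 (Irf1, Ifngr1, Ube2l6, Tgtp1 and Ifnar1) and 2 below 0 (Zbp1 and Socs1). Over all genes, 12.5% passed, 7.69% above and 4.81% below 0. With mice 1 and 2 and mice 3 and 4 taken as random blocks, 3 members (Irf1, Ifngr1 and Socs1) and 4.79% of all genes passed limma. The list did not lie to one side: 17 members had means above 0 and 16 below, with a median of 0.02, against 0.00 over all genes. In size, 1 member (Oasl1) exceeded a mean of 1 in either direction, as did 2.14% of all genes. At an unadjusted p under 0.05 stood 17 of the 33 members and 31.8% of all genes. Every value lay above 0 in 11 members (33.3%) and below 0 in 9 (27.3%), against 24.3% and 22.3% of all genes.

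**Figure D1:**
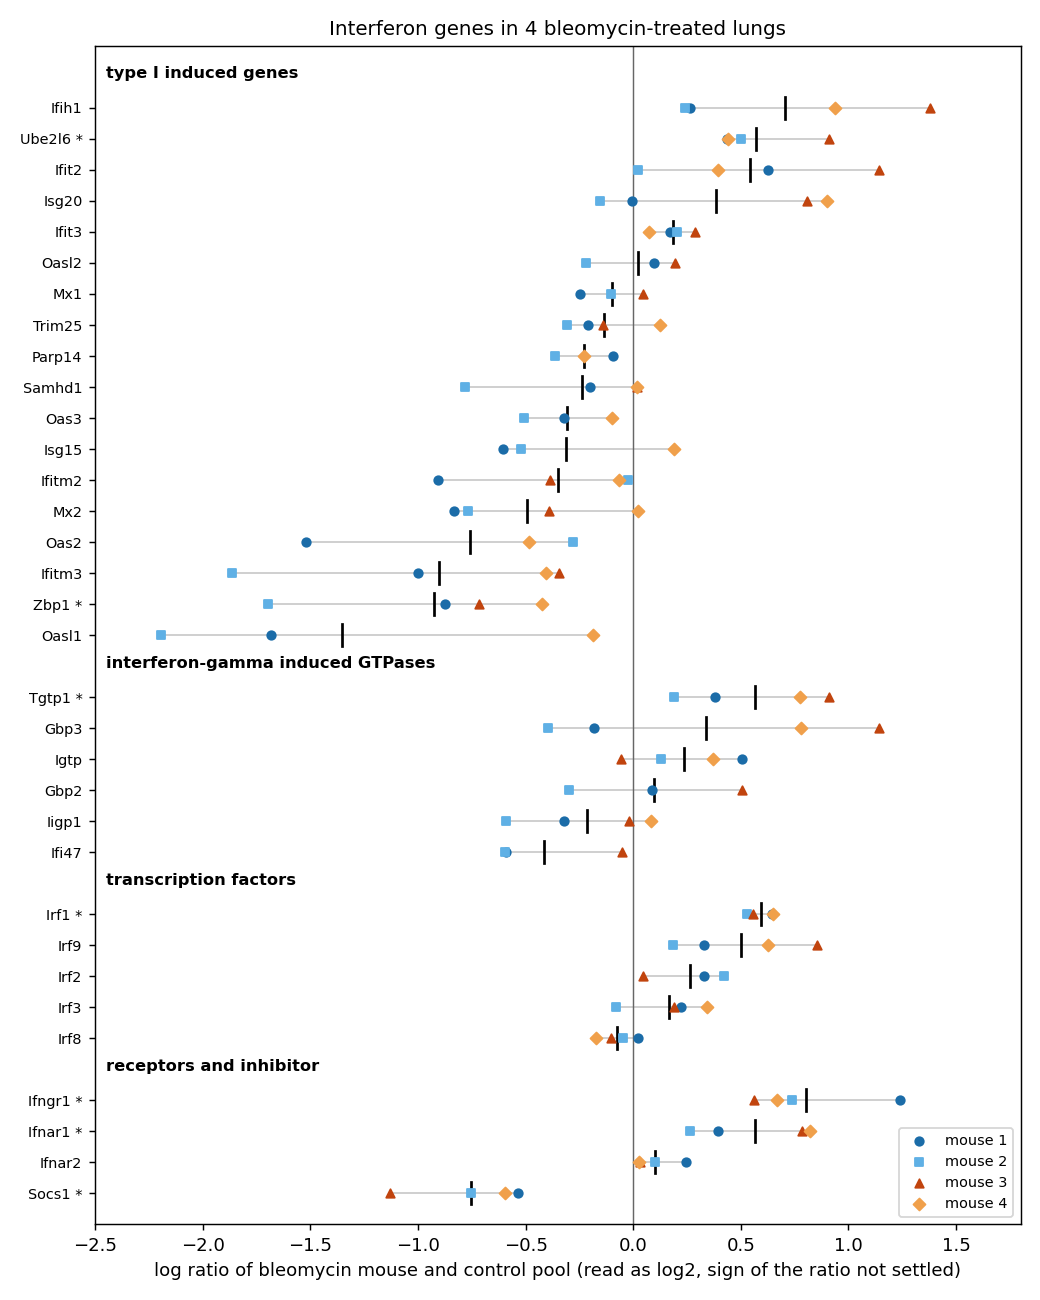
Log ratio (read as log2, sign of the ratio not settled) of each of the 33 interferon genes tested in each bleomycin mouse against the control pool; markers are mice, black bars the mean over mice, grey lines the range, and asterisks the 7 genes that passed limma. Irf1 values sit closely together above 0, whereas Oasl1, Ifitm3 and Zbp1 spread widely below 0.

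Both receptors had 1 chain that passed above 0. Ifngr1, the ligand-binding chain of the interferon gamma receptor, had log ratios of 1.24, 0.74, 0.56 and 0.67 in mice 1 to 4. All lay above 0, with mouse 1 highest. The mean was 0.80 ± 0.30 (SD, n = 4), a 1.74-fold difference (limma adjusted p = 0.0187). The call was lost without mouse 4 (adjusted p = 0.0565).

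Ifnar1, a signalling chain of the type I receptor, had 0.39, 0.27, 0.79 and 0.82, so that mice 3 and 4 lay above mice 1 and 2. Its mean was 0.57 ± 0.28 (SD, n = 4; limma adjusted p = 0.0365). That call was lost without mouse 1, 3 or 4, at adjusted p up to 0.108. Ifnar2, the partner chain that binds type I interferon with high affinity, had 0.25, 0.10, 0.03 and 0.03, and did not pass (mean 0.10 ± 0.10, SD, n = 4; limma adjusted p = 0.364). Ifnar1 exceeded Ifnar2 in each of the 4 mice, by 0.46 ± 0.36 (SD).

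Ifnar2, Il10rb, Ifnar1 and Ifngr2 are successive protein-coding genes on chromosome 16. Il10rb, a chain shared by the receptors of interleukin 10 and interferon lambda, had a mean of -0.06 ± 0.03, and Ifngr2, the signalling chain of the interferon gamma receptor, of 0.06 ± 0.09 (SD, n = 4 each; limma adjusted p = 0.569 and 0.603). Of the 4 neighbours, 1 passed, Ifnar1. Il10rb and Ifngr2 were named after their values were seen.

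Of 10 ligand genes listed, 3 were named on the array and 1 was tested. That gene, Ifng, which encodes interferon gamma, had -0.11, -0.10, -0.24 and -0.03 in mice 1 to 4 and did not pass (mean -0.12 ± 0.09, SD, n = 4; limma adjusted p = 0.283). Ifnb1 and Cxcl10 were on the array with no value in any mouse. The kinase genes Jak2 and Tyk2 had means of 0.12 ± 0.06 and 0.00 ± 0.11 (SD, n = 4 each) and did not pass (limma adjusted p = 0.254 and 0.998). Jak1 was not named by the table of the array. Of the 6 further receptor chains, kinases and factors tested, 0 passed limma, and 0 had an unadjusted p under 0.05. The shares over all genes were 12.5% and 31.8%.

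**Figure D2:**
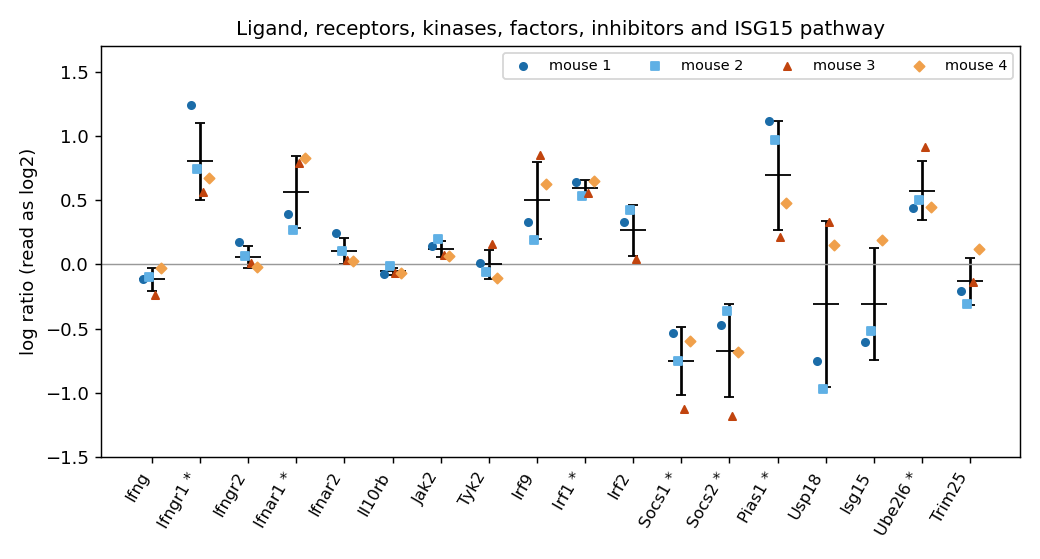
Log ratio (read as log2) of ligand, receptor, kinase, factor and inhibitor genes and of genes of the ISG15 conjugation system, by mouse; black bars are the mean ± SD over mice (n = 4, or 3 for Irf2 and Isg15), and asterisks mark genes that passed limma. Ifngr1, Ifnar1, Irf1, Pias1 and Ube2l6 passed above 0, and Socs1 and Socs2 below it.

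Of the 5 transcription factors tested, only Irf1 passed (20%, against 12.5% of all genes). Irf1, which is induced by interferon gamma and activates many of the genes listed here, had log ratios of 0.64, 0.53, 0.56 and 0.65 in mice 1 to 4. The 4 mice differed by little, and the SD of 0.06 was the smallest of the 33 members, with Irf8 close to it at 0.08. The mean was 0.59 ± 0.06 (SD, n = 4), a 1.51-fold difference (limma adjusted p = 0.00902). Irf1 passed whichever mouse was left out, at adjusted p from 0.0247 to 0.0424.

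Irf9, the DNA-binding part of the type I complex, had 0.33, 0.19, 0.85 and 0.63, above 0 in each mouse and higher in mice 3 and 4. Its mean of 0.50 ± 0.30 (SD, n = 4) fell just short of the threshold (limma adjusted p = 0.0526), and it passed when only genes with 4 values were fitted or after quantile normalization. Irf2, which competes with Irf1 for DNA, had 0.33, 0.42 and 0.04 in mice 1 to 3 (mean 0.26 ± 0.20, SD, n = 3; limma adjusted p = 0.165). Irf1 exceeded Irf2 in each of these 3 mice, by 0.31 ± 0.20 (SD).

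Irf3 is present before stimulation and is activated by phosphorylation downstream of nucleic acid sensors. It had 0.22, -0.08, 0.19 and 0.34 and did not pass (limma adjusted p = 0.245). Irf8, needed for the development of dendritic cells and monocytes, had 0.02, -0.05, -0.10 and -0.17 and did not pass either (mean -0.07 ± 0.08, SD, n = 4; limma adjusted p = 0.480). Irf5, Irf7 and Stat2 had a value in 1 mouse each and were not tested.

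The genes induced by type I interferon spread over both sides of 0. Of 28 listed, 18 were tested, 1 passed above 0 and 1 below, and 6 means lay above and 12 below 0. The median was -0.23, with means from -1.35 to 0.71. The share that passed was 11.1%, near the 12.5% of all genes, of which 4213 had means above and 4171 below 0. Ifitm1, Oas1a, Bst2 and Xaf1 were not named on the array. Ifi35 had no value, Ifit1, Eif2ak2 and Adar had 1, and Rsad2 and Trim30a had 2.

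Zbp1, a sensor of Z-form nucleic acids that can trigger cell death, passed below 0. Its values were -0.87, -1.70, -0.72 and -0.42 in mice 1 to 4. Mouse 2 was lowest, and every value was below 0. The mean of -0.93 ± 0.54 (SD, n = 4; limma adjusted p = 0.0424) was a 1.90-fold difference. The call was lost without mouse 1, 3 or 4, at adjusted p up to 0.110.

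Other low means came with wide spread. Oasl1, which in mice restrains translation of Irf7, had -1.68, -2.20 and -0.19 in mice 1, 2 and 4. Mouse 4 stood far closer to 0, and the mean of -1.35 ± 1.04 (SD, n = 3), the lowest of all members, did not pass (limma adjusted p = 0.0930). Its neighbour Oasl2, a related oligoadenylate synthetase gene, had 0.10, -0.22 and 0.19 in mice 1 to 3. In mice 1 and 2, where both have a value, Oasl1 minus Oasl2 was -1.78 and -1.97.

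Ifitm3, a membrane protein gene that blocks entry of enveloped viruses, had -1.001, -1.87, -0.34 and -0.40 (mean -0.90 ± 0.71, SD, n = 4; limma adjusted p = 0.0758). All values were below 0, lowest in mouse 2, and the gene passed under quantile normalization. The related Ifitm2 had -0.91, -0.03, -0.38 and -0.07 and did not pass (limma adjusted p = 0.193). The gap between them came from mouse 2, where Ifitm3 minus Ifitm2 was -1.84. In the other mice this difference was between -0.34 and 0.04. Oas2 and Oas3, synthetases of the signal that activates RNase L, had means of -0.76 ± 0.67 and -0.31 ± 0.20 (SD, n = 3 each), below 0 in mice 1, 2 and 4, and did not pass (limma adjusted p = 0.126 and 0.131).

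Mx2, a dynamin-like antiviral GTPase gene, had -0.83, -0.77, -0.39 and 0.02 (mean -0.49 ± 0.39, SD, n = 4; limma adjusted p = 0.0913). Mx1, whose protein acts against influenza viruses, had -0.25, -0.10 and 0.05 in mice 1 to 3 (limma adjusted p = 0.511). Mx2 lay below Mx1 in each of those 3 mice, with differences from -0.67 to -0.44. Whether probes of such related genes also bind each other's RNA was not tested.

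At the upper end, Ifih1, a sensor of viral double-stranded RNA, had 0.27, 0.24, 1.38 and 0.94. Mice 3 and 4 were well above mice 1 and 2, and the mean of 0.71 ± 0.55 (SD, n = 4) did not pass (limma adjusted p = 0.0797). Ifit2 and Ifit3, neighbouring genes of antiviral RNA-binding proteins, were above 0 in each mouse. Ifit2 had 0.62, 0.02, 1.14 and 0.39 (limma adjusted p = 0.102), and Ifit3 a narrow 0.17, 0.20, 0.29 and 0.07 (mean 0.18 ± 0.09, SD, n = 4; limma adjusted p = 0.129). Neither passed. Isg20, an exonuclease gene, had -0.01 and -0.15 in mice 1 and 2 and 0.81 and 0.90 in mice 3 and 4, on opposite sides of 0 (limma adjusted p = 0.249).

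Members of the ISG15 conjugation system did not lie on one side. ISG15 is a ubiquitin-like protein that is attached to other proteins by Ube2l6, the conjugating enzyme, with ligases such as Trim25, and removed by Usp18. Ube2l6 passed above 0, with 0.43, 0.50, 0.91 and 0.44 in mice 1 to 4. Mouse 3 stood above the other three, which lay close together, and the mean was 0.57 ± 0.23 (SD, n = 4; limma adjusted p = 0.0254). The call was lost whichever mouse was left out, at adjusted p from 0.0524 to 0.0688.

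Isg15 itself had -0.60 and -0.52 in mice 1 and 2 and 0.19 in mouse 4 (mean -0.31 ± 0.44, SD, n = 3; limma adjusted p = 0.301). Usp18 had -0.75 and -0.97 in mice 1 and 2 and 0.33 and 0.15 in mice 3 and 4 (limma adjusted p = 0.420). In both genes the mice fell on opposite sides of 0. Trim25 had -0.21, -0.31, -0.14 and 0.12 (limma adjusted p = 0.354), the mean of 2 probes with the same sign in each mouse where both had a value. Parp14, an ADP-ribosyltransferase gene, had -0.10, -0.36 and -0.23 in mice 1, 2 and 4 (limma adjusted p = 0.163), and Samhd1, which degrades deoxynucleotides, had -0.20 and -0.78 in mice 1 and 2 and 0.02 in both mice 3 and 4 (limma adjusted p = 0.321).

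Of the 8 GTPase genes induced by interferon gamma, 6 were tested. Of these, 1 (16.7%) passed above 0 and 0 below, against 12.5% of all genes on either side. The median of the GTPases was 0.17. That median was 0.33 without mouse 1 and 0.43 without mouse 2, and 0.14 to 0.43 with any 1 mouse left out. Without mouse 1, 2 or 3 it rests on 4 of the 6 genes, as Gbp2 and Ifi47 drop out of those fits. The part of the mouse and of the lost genes in these shifts was not tested. Irgm1, with a value in 1 mouse, and Gbp4, with none, were not tested in any of these fits. Tgtp1, an immunity-related GTPase that loads onto parasite vacuoles, had 0.38, 0.19, 0.91 and 0.78 in mice 1 to 4. All were above 0, higher in mice 3 and 4, with a mean of 0.56 ± 0.34 (SD, n = 4; limma adjusted p = 0.0493). This call lies at the threshold and was lost without mouse 1, 3 or 4 (adjusted p up to 0.144), and also without centring. Ifi47, of the same protein family, had -0.59, -0.59 and -0.05 in mice 1 to 3 (mean -0.41 ± 0.31, SD, n = 3; limma adjusted p = 0.123), and Tgtp1 lay 0.79 to 0.97 above it in these 3 mice. Whether the Tgtp1 probe also binds RNA of related genes was not tested.

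Gbp3, a guanylate-binding protein gene, had -0.18 and -0.39 in mice 1 and 2 and 1.14 and 0.78 in mice 3 and 4. With mice on opposite sides of 0 its mean was 0.34 ± 0.74 (SD, n = 4; limma adjusted p = 0.440), the widest spread of the GTPases. Gbp2 had 0.09, -0.30 and 0.50 in mice 1 to 3 (limma adjusted p = 0.732). Igtp had 0.51, 0.13, -0.06 and 0.37 (limma adjusted p = 0.192), and Iigp1, a GTPase of the Toxoplasma vacuole, -0.32, -0.59, -0.02 and 0.08 (limma adjusted p = 0.296).

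Socs1, which blocks Janus kinases and is itself induced by interferon, passed below 0. It had -0.54, -0.75, -1.13 and -0.60 in mice 1 to 4, each below 0, with mouse 3 lowest. The mean was -0.75 ± 0.27 (SD, n = 4), a 1.69-fold difference (limma adjusted p = 0.0174), and the call was lost without mouse 4 (adjusted p = 0.0516). Irf1 and Socs1, both known to be induced by interferon gamma, thus passed on opposite sides of 0 on the same arrays.

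Of the 7 inhibitor genes tested in the wider pathway, 1 passed above 0 and 1 below. That share of 28.6% compares with 12.5% of all genes. Pias1, an inhibitor of Stat signalling, had 1.12, 0.97, 0.21 and 0.48 (mean 0.69 ± 0.42, SD, n = 4; limma adjusted p = 0.0482), and Socs2, a relative of Socs1, had -0.47, -0.36, -1.18 and -0.68 (mean -0.67 ± 0.36, SD, n = 4; limma adjusted p = 0.0389). Both calls were lost whichever mouse was left out. Pias1 was higher in mice 1 and 2, and Socs2 was lower in mice 3 and 4.

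In all, 53 of 112 further pathway genes were tested, with 5 passing above 0, 1 below, and a median of 0.02. Their share of 11.3% compares with 12.5% of all genes. Besides Pias1, those above 0 were the kinase gene Irak1 of Toll-like receptor signalling (0.58 ± 0.34, SD, n = 4; limma adjusted p = 0.0479), Trim21, an antibody receptor and ubiquitin ligase (0.69 ± 0.20, SD, n = 4; adjusted p = 0.0141), Ifi203 (0.67 ± 0.16, SD, n = 3; adjusted p = 0.0227) and Parp9 (0.40 ± 0.15, SD, n = 4; adjusted p = 0.0344). Trim21 was lost without mouse 3 or 4, and Irak1 and Parp9 whichever mouse was left out. Of the 31 other induced genes among the 53, 3 (9.68%) passed above 0 and 0 below.

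Set side by side, the type I induced genes had a lower median than the transcription factors in each mouse. The medians were -0.23, -0.29, 0.05 and 0.02 for type I induced genes in mice 1 to 4, against 0.33, 0.19, 0.19 and 0.48 for transcription factors. Type I induced genes minus transcription factors was thus below 0 in 4 of 4 mice and lay between -0.56 and -0.14. The GTPases did not keep one place: their medians were -0.05, -0.35, 0.24 and 0.57. They lay above the type I induced genes in 3 mice and below them, by 0.05, in mouse 2. Against the transcription factors they lay above in mice 3 and 4 and below in mice 1 and 2. Members are not replicates, so no test was made between classes. Without mouse 2 the median of the type I induced genes was -0.06, and that of the transcription factors 0.43. That fit held 11 of the 18 type I induced genes and 4 of the 5 transcription factors, so genes as well as a mouse were lost. Medians in mice 3 and 4 rest on fewer members: of the 18 type I induced genes, 13 had a value in mouse 3 and 16 in mouse 4. Of the 6 GTPases, 4 had a value in mouse 4, where Gbp2 and Ifi47 had none. Whether the order of the classes holds on genes with a value in every mouse was not tested.

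**Figure D3:**
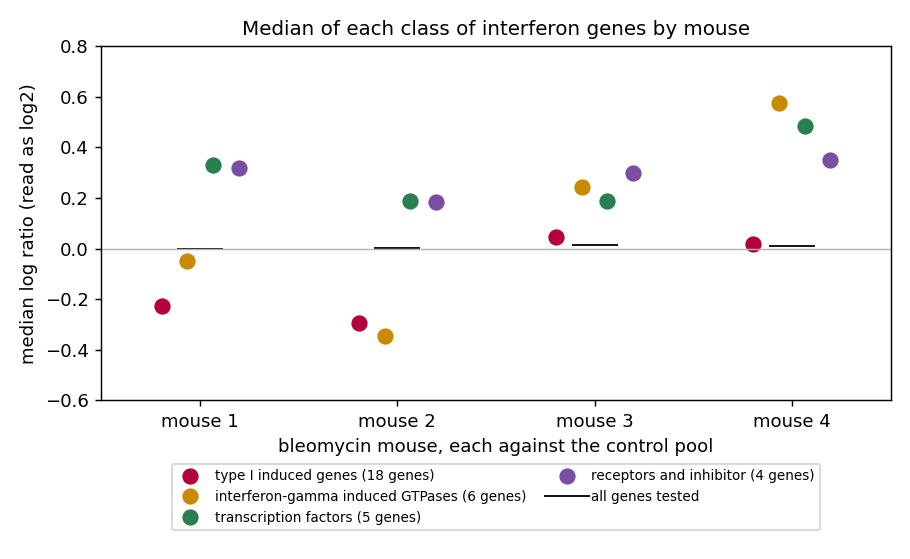
Median log ratio (read as log2) of each class of interferon genes in each bleomycin mouse against the control pool; points are medians over the members with a value in that mouse, and black bars the median of all genes tested. Type I induced genes lie below transcription factors in all 4 mice, and GTPases range from -0.35 in mouse 2 to 0.57 in mouse 4.

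Spread between mice was wide for many interferon genes. Their median SD was 0.30, against 0.17 over all genes, and 27 of 33 had an SD above the median of all genes. The 65 cell type markers tested had a median SD of 0.28, close to that of the members, and the 53 further pathway genes one of 0.18, so a wide spread was not particular to the members. Type I induced genes had a median SD of 0.40, GTPases of 0.32 and transcription factors of 0.18. Median absolute means were 0.35 for members and 0.16 for all genes. The table used here gives no spot intensities, so whether dim spots add to this spread was not tested.

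**Figure D4:**
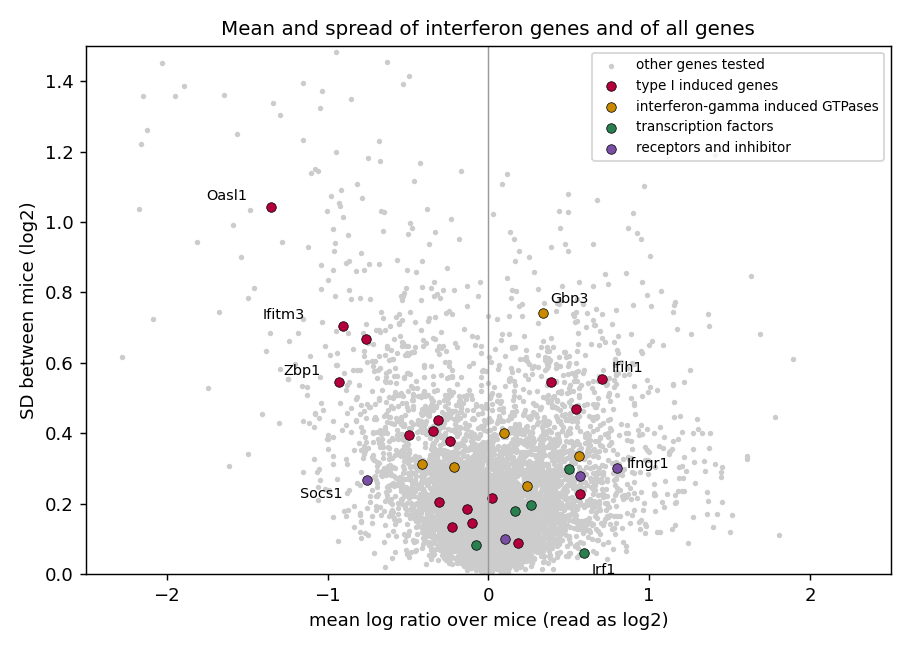
Mean log ratio over mice against the SD between mice (both log2) for the interferon genes, coloured by class, and for all genes tested in grey; 16 genes lie outside the axes. Irf1 sits at the bottom with an SD of 0.06, and Oasl1 at the upper left with 1.04.

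Part of this spread followed an order that recurred from gene to gene. Both mice 3 and 4 had higher values than both mice 1 and 2 in 12 of the 23 members with 4 values, among them Ifih1, Isg20, Gbp3, Tgtp1, Irf9, Ifnar1, Zbp1, Ifitm3 and Mx2. The opposite order was seen in 3, Ifngr1, Ifnar2 and Irf8. Over all genes with 4 values, the shares were 31.9% and 22.5%, against 52.2% and 13% of the members. Of the 23 other induced genes of the pathway list with 4 values, 14 had mice 3 and 4 higher and 1 lower, and of 52 cell type markers with 4 values 12 were higher and 12 lower. Oas1g, an oligoadenylate synthetase gene named after its values were seen, had -1.76, -1.66, 0.21 and 0.06 in mice 1 to 4. For 3 members, Gbp3, Isg20 and Samhd1, the order crossed 0, with mice 1 and 2 below and mice 3 and 4 above. This share of 23 lies near the 14.7% of all genes with mice 1 and 2 on one side of 0 and mice 3 and 4 on the other. These mice pairs are not groups of the study, and no test was made between them.

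Immune cell markers beside these values moved on both sides of 0. The shares of all genes, to set beside the counts, were 7.69% passing above and 4.81% below 0. An unadjusted limma p under 0.05 was seen in 31.8% of all genes. Of 10 macrophage markers tested, 3 passed above 0 and 1 below, and their medians were -0.32, -0.29, -0.23 and 0.16 in mice 1 to 4. T and NK cell markers had 1 of 9 passing, above 0, with a median of -0.01 over mice. For dendritic cell and B cell markers, 0 of 4 and 0 of 5 passed limma, 1 and 0 of them with an unadjusted p under 0.05. Neutrophil markers had 2 of 5 passing below 0, endothelial markers 5 of 7 above, with medians between 0.87 and 1.14 in each mouse, and lung epithelial markers 2 above and 1 below of 11. Striated muscle and fat cell markers had 3 of 10 and 3 of 4 passing below 0. The fat cell calls fell to 0 without mouse 1, 3 or 4 and with the mouse pairs as random blocks, and the muscle calls to 1 without mouse 1 or 4. The T and NK cell call was lost without mouse 1, 3 or 4 and with the pairs as random blocks. Macrophage calls numbered 1 without mouse 3 or 4 and 2 without mouse 2, and endothelial calls 3 without mouse 4. The part of these cell types in the interferon gene values was not tested.

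Among tested genes with a promoter in the table, the motifs did not sort the genes by side. Zbp1, Oas2, Mx2, Parp14, Iigp1 and Mx1 were tested but had no promoter there. Their means all lay below 0, from -0.93 (Zbp1) to -0.10 (Mx1), so the counts that follow lack genes from that side only. Of 12 tested members with a response element, 7 had means above and 5 below 0, with a median of 0.14. Of 15 without one, 10 lay above and 5 below, with a median of 0.17. Among the stretches printed above, Tgtp1 (0.56), Gbp3 (0.34) and Ifit3 (0.18) carry the element above 0, and Isg15 (-0.31) and Socs1 (-0.75) below. They were picked because they lie on different sides of 0, so they add nothing to these counts. Of 11 with a gamma-activated site, 8 lay above and 3 below 0, median 0.26, and of 16 without one, 9 and 7, median 0.06. These are descriptions of the promoter window searched, without a test.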

How the data were processed

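The authors deposited 1 log ratio per spot and array for 17280 spots, read here as log2. No source used here states the base, direction, dyes, background correction, normalization or the rule for empty spots. Arrays had 9427 to 12136 values and medians from -0.009 to 0.029. The table held 0 further columns of per-sample values. Probes were named through annotation of the platform, possibly outdated: of 14723 spots listed, 14722 had 1 symbol.

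Each array was centred on its median, probes of a symbol were averaged, and genes with a value on at least 3 arrays were tested with limma 3.58.1 (R 4.3.3; intercept, eBayes, two-sided, Benjamini-Hochberg). The fit was run on simulated data with independent arrays, which does not check it for the likeness within the mouse pairs. Alternatives changed centring, scaling, the filter, the probe rule and the variance model, took the mouse pairs as a random block, and left out each mouse. By the rule for named genes, every tested member could be named, with pathway genes past the test and, whatever their value, Jak1, Jak2, Tyk2, Usp18, Ifng, Ifnb1 and Cxcl10. 1 further listed gene is not reported here. Members and lists were chosen with earlier results of these data known. Each mouse was taken as 1 replicate.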

Additional observations from a re-analysis of the deposited data

Results flagged for a closer look

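Of the 34 interferon and pathway genes with 4 values that were examined, and the medians of the gene lists, 2 had a single mouse far from the other three (Dixon's test at the 95% level, which flags about 1 in 20 by chance). That is near the number such a rate would give over these genes and medians. Ube2l6 had 0.91 in mouse 3, against 0.43 to 0.50 in the others. The median of the neutrophil markers was -0.074 in mouse 2, against -0.52 to -0.45 in the others.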

How the results depend on the processing

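Of the members, Irf1 passed in every alternative except eBayes with trend and robust (adjusted p = 0.0533). With trend and robust, 110 genes passed limma, 110 above and 0 below 0, and 0 of each class of members, of the pathway genes above or below 0, and of the macrophage, T and NK cell, neutrophil, muscle and fat cell markers. At an unadjusted p under 0.05 there stood 17 members and 13 pathway genes, and 2734 of all 8384 genes. That setting had only the tested mean itself as the trend's covariate, since no intensities were at hand. With robust alone, added after seeing the data, 1002 genes and 6 members passed, with 3 pathway genes above 0 and 0 GTPases. With mice 1 and 2 and mice 3 and 4 as a random block, 402 genes (4.79%) passed, 286 above and 116 below 0. Among the members, 2 passed above and 1 below 0 (Ifngr1, Irf1 and Socs1), with 0 type I induced genes and 0 GTPases. Of the pathway genes, 2 passed above and 0 below, and 0 T and NK cell and 0 fat cell markers passed. Under an unadjusted limma p of 0.05 were 14 of the 33 members and 2142 of all 8384 genes. GTPases passing were 0 without centring, with scaled arrays and with at least 2 values, and transcription factors passing were 2 with quantile normalization and with 4 values. With at least 2 values, 3 pathway genes passed above 0 and the macrophage and endothelial medians were 0.042 and 0.83. With 4 values, 2 macrophage markers passed and the T and NK cell median was 0.17.

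With 1 mouse left out, 277 to 537 genes passed (3.95% to 8.42% of those tested), 193 to 386 above and 78 to 151 below 0. Members passing were 1 to 4 above and 0 to 2 below: 0 to 1 type I induced genes, 0 to 1 GTPases and 0 to 3 of the receptor and inhibitor genes. Without mouse 4, Irf1 was the only member of 28 that passed, against 4.74% of all genes in that fit. Pathway genes passing were 0 to 2 above and 0 below, and markers 1 to 3 for macrophages, 0 to 1 for T and NK cells, 3 to 5 for endothelium, 1 to 3 for muscle and 0 to 4 for fat cells. Class medians ranged from -0.31 to -0.056 for type I induced genes, from 0.14 to 0.43 for GTPases and from 0.26 to 0.43 for transcription factors, and marker medians from -0.56 to -0.23 for macrophages and from 0.064 to 0.16 for T and NK cells. These fits need a value on all 3 remaining arrays, and so test 23 to 28 members. Tyk2 turned below 0 with scaled arrays (-0.0128), quantile normalization (-0.00311), and without 1 mouse, where it ranged from -0.0513 to 0.0353. With the shorter core of the response element, 53.7% of members and 9.76% of all genes matched. The cause of each change was not tested. No paired analysis was possible because there is 1 group of mice against 1 pool.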
